A study of Arabidopsis thaliana with 6 samples.

Results

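The DOF proteins are a plant family of transcription factors that bind DNA through a zinc finger, and 8 of their genes that are known from vascular tissue were followed here in the *Arabidopsis thaliana* stem. They were chosen by name from 33316 genes in the files: *PHLOEM EARLY DOF 1* and *2* (*PEAR1*, AT2G37590, and *PEAR2*, AT5G02460), *TARGET OF MONOPTEROS 6* (*TMO6*, AT5G60200), *DOF6* (AT3G45610), *HIGH CAMBIAL ACTIVITY 2* (*HCA2*, AT5G62940), *OBF BINDING PROTEIN 2* and *3* (*OBP2*, AT1G07640, and *OBP3*, AT3G55370) and *DOF5.8* (AT5G66940). Messenger RNA was sequenced from second internodes of plants of 15 to 20 cm that are labelled as carrying p35S:Myc-GR-bdl. There were 3 libraries after a mock treatment (Mock) and 3 after 15 µM dexamethasone (DEX), both for 3 h. The plants, of the accession Columbia (Col-0), were grown for 3 weeks with 8 h of light a day and then with 16 h. The AUX/IAA repressor BODENLOS (BDL) stops AUXIN RESPONSE FACTORs from activating their targets, bdl is a form of it that auxin does not remove, and the glucocorticoid receptor part (GR) holds the fusion outside the nucleus until Dex is present. The comparison thus asks which of these genes changed shortly after auxin signalling was blocked. All 6 libraries carry the transgene, and the mock solution held the same amount of ethanol as the Dex solution, without Dex. The 35S promoter is active in most cell types of the plant. Transgene-free plants were not analysed here (0 libraries), so an effect of Dex alone and one of bdl cannot be told apart.

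In the root tip, PEAR proteins are made in the young sieve elements of the phloem, move into neighbouring cells and promote the divisions that thicken the vascular cylinder. Their genes respond to cytokinin, which is activated in the xylem precursors by LOG enzymes under the auxin-dependent factors TMO5 and LHW, and HD-ZIP III factors act against them from the xylem side. *TMO6* was first described as a target of the auxin response factor MONOPTEROS (ARF5) in the embryo, and *HCA2* promotes the formation of cambium between the vascular bundles of the stem.

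DOF proteins share the zinc finger that their family is named for, and the coding bases of this finger are shown for the 4 genes that changed between the groups, because they let the genes that moved in opposite directions be compared. Each stretch runs over 29 codons (87 bases) from the first to the last of the 4 cysteine codons that hold the zinc, which stand in capitals. Positions are from TAIR10.1 and the sequences from RefSeq; all 8 genes matched that annotation by identifier. The stretch lies in exon 2 of each of these genes, at chr5:24241346-24241432 on the plus strand for *TMO6*, chr2:15769775-15769861 on the plus strand for *PEAR1*, chr5:540374-540460 on the minus strand for *PEAR2* and chr1:2355382-2355468 on the minus strand for *OBP2*.
TMO6: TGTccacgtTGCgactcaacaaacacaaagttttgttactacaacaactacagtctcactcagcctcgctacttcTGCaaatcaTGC
PEAR1: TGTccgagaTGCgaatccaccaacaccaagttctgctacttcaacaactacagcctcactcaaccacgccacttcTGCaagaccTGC
PEAR2: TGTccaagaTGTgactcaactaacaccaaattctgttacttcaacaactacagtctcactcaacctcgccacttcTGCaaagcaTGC
OBP2: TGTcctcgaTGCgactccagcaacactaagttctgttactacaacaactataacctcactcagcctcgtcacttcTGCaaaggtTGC
*PEAR1* and *PEAR2* had the same base at 75 of the 87 positions (86.2%), and *PEAR2* and *TMO6* at 76 (87.4%), which was the highest identity among the 28 pairs of the 8 genes (lowest 75.9%, median 81.6%). Over all 8 genes, 53 positions were identical. The longest run of identical bases shared by any pair of their transcripts (the longest coding transcript of each gene) was 26 bases, shorter than a read of 50 bases, and all reads counted for these genes were assigned uniquely (100%). The other genes lie at chr3:16739247-16740546 (*DOF6*, minus strand), chr5:25256852-25258704 (*HCA2*, minus), chr3:20527063-20529331 (*OBP3*, plus) and chr5:26727819-26728715 (*DOF5.8*, minus), and none of the 8 overlaps another annotated gene (0 overlapping genes for each).

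Of the 7 vascular DOF genes with enough reads to be tested, *TMO6* and *PEAR1* fell and *PEAR2* and *OBP2* rose after Dex, whereas *HCA2*, *OBP3* and *DOF6* did not pass the test and *DOF5.8* was barely read. The 2 that fell compare with 5.5% of all 19598 tested genes, and the 2 that rose with 6.38%. In all, 4 of 7 were called at an adjusted p below 0.05 (edgeR, over all tested genes), against 11.9% of all genes, and the 3 DEX values lay entirely above or below the 3 Mock values for 6 of the 7, against 28.3% of all genes. The median log2 fold change of the 7 was -0.30, beside -0.01 over all tested genes. Levels are given as CPM, reads scaled to the library's total after TMM scaling, which sets the libraries to a common level. *PEAR1* was among the genes that had been picked for further work with the help of these libraries, so its fall is not independent evidence. In whole internodes, fewer cells of a type and less RNA per cell cannot be told apart.

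*TMO6* was the most abundant of the 8 genes in Mock stems and had the largest fall. It had 55.3, 49.0 and 54.8 CPM in Mock libraries 1, 2 and 3 and 13.6, 13.8 and 13.5 CPM in DEX libraries 1, 2 and 3. All 3 DEX values were far below the lowest Mock value, and they differed little from each other (13.6 ± 0.167 CPM, SD, n = 3, against 53.0 ± 3.48 CPM in Mock). The level was 3.89-fold lower after Dex (log2 fold change -1.96 ± 0.08, SE, adjusted p = 3.42e-05 with edgeR). Reads across exon junctions fell in parallel, from 78, 80 and 120 in Mock to 29, 26 and 28 in DEX, and intron reads went from 10, 11 and 16 to 1, 3 and 2. Mature and unspliced reads thus both had lower counts in every DEX library.

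*PEAR1* had 5.92, 5.63 and 7.93 CPM in Mock and 2.15, 1.85 and 1.88 CPM in DEX. Mock 3 was the highest library, and the groups did not overlap. The level was 3.31-fold lower after Dex (log2 fold change -1.73 ± 0.18, adjusted p = 0.00115 with edgeR). The change was of nearly the size seen for *TMO6*, in a gene with a far lower Mock level. Junction reads were few, with 4, 6 and 9 in Mock and 3, 2 and 6 in DEX, and their groups overlapped.

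*PEAR2* moved the other way from its close relative. It had 4.41, 4.51 and 3.84 CPM in Mock and 12.05, 9.30 and 12.4 CPM in DEX, so even DEX 2, the lowest DEX library, lay well above every Mock library. The level was 2.65-fold higher after Dex (log2 fold change 1.405 ± 0.15, adjusted p = 0.00117 with edgeR). Junction reads were few and in the same direction, with 21 over the Mock libraries and 55 over the DEX libraries. Counted against each other within a library, *PEAR2* had 0.676 ± 0.169 reads for each *PEAR1* read in Mock and 5.74 ± 0.789 in DEX (SD of 3 libraries per group). The pair thus changed places, with *PEAR1* above *PEAR2* in each Mock library and *PEAR2* above *PEAR1* in each DEX library.

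*OBP2*, a regulator of indole glucosinolate synthesis that is expressed in the phloem, had 12.6, 12.6 and 15.3 CPM in Mock and 20.2, 16.6 and 23.6 CPM in DEX. The groups did not overlap, but DEX 2 was close to Mock 3. Junction reads were too few to show a direction, with 4 over the Mock libraries and 2 over the DEX libraries. The level was 1.49-fold higher (log2 fold change 0.57 ± 0.15), and the adjusted p of 0.0492 with edgeR was just under the threshold. The call was lost in 8 of 16 alternatives, among them upper-quartile scaling, library totals and limma-voom, which leave 2 genes that fell and 1 that rose. It was also lost without any single Mock library (log2 fold change 0.53, 0.53 and 0.67 without Mock 1, 2 and 3) and without DEX 1 (0.57) or DEX 3 (0.44), with adjusted p over all alternatives from 0.00434 to 0.184.

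The remaining members gave no call. *HCA2* had 7.95, 8.45 and 8.09 CPM in Mock and 7.45, 6.20 and 5.04 CPM in DEX, and its DEX values were all lower but spread more widely than in Mock (log2 fold change -0.39 ± 0.16, adjusted p = 0.184 with edgeR). *OBP3*, a factor of light signalling and growth, had 13.3, 12.7 and 13.8 CPM in Mock and 9.31, 11.02 and 11.9 CPM in DEX. Its groups did not overlap, and the difference was small (-0.30 ± 0.11, adjusted p = 0.160). *DOF6*, known as a repressor of seed germination, was the only tested member whose groups overlapped, with 2.28, 3.39 and 3.73 CPM in Mock and 4.15, 3.39 and 4.80 CPM in DEX (0.39 ± 0.23, adjusted p = 0.375). *DOF5.8*, a vascular factor of the leaf that also lies downstream of MONOPTEROS, had 2 reads in every Mock library and 0, 2 and 0 reads in DEX, which is below the 3 reads that a count of 0 allows (0.0793 to 0.0980 CPM per library), so no difference was detectable at this depth.

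**Figure D1:**
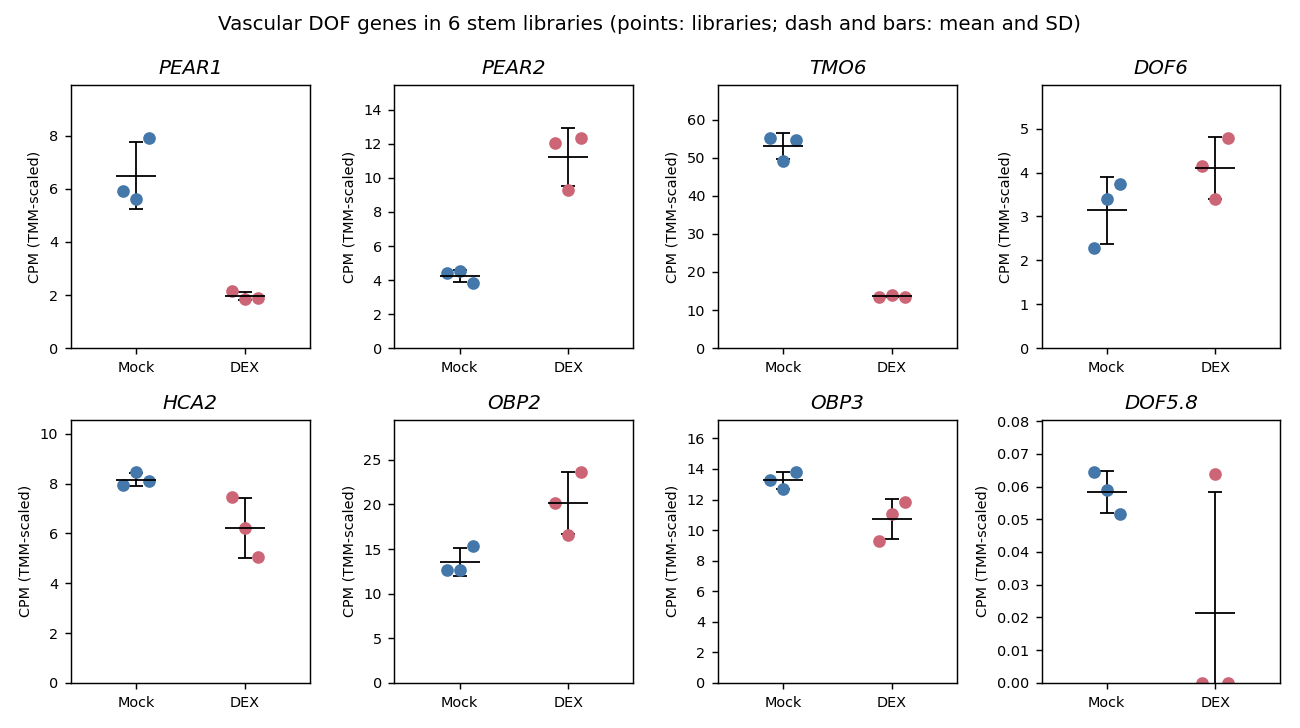
Level of each of the 8 vascular DOF genes (y axes, TMM-scaled CPM, each from 0 and on its own scale) in the 3 Mock and 3 DEX libraries; points are libraries, the dash is the group mean and bars are 1 SD, those of *DOF5.8* being cut off at 0. *TMO6* and *PEAR1* were lower and *PEAR2* and *OBP2* higher in all DEX libraries, and the *DOF5.8* points stand for at most 2 reads each.

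The fall of *TMO6* changed the make-up of this group of transcripts more than any other change. Levels of different genes are compared as RPKM, the reads of a gene scaled to its exon length and to the library's total, as deposited. In Mock, *TMO6* stood at 37.4 ± 2.34 RPKM, above *OBP3* (7.71 ± 0.314) and *OBP2* (7.48 ± 0.893), then *HCA2* (5.34 ± 0.177) and *PEAR1* (5.15 ± 1.01), *DOF6* (2.995 ± 0.739) and *PEAR2* (2.80 ± 0.232), and *DOF5.8* at 0.0879 ± 0.00927. The library ranges of *OBP3* and *OBP2*, of *HCA2* and *PEAR1*, and of *DOF6* and *PEAR2* overlapped, and those of the other neighbours did not. After Dex the order was *OBP2* (10.6 ± 1.74 RPKM), *TMO6* (9.18 ± 0.292), *PEAR2* (6.99 ± 0.983), *OBP3* (5.97 ± 0.802), *HCA2* (3.88 ± 0.706), *DOF6* (3.73 ± 0.602), *PEAR1* (1.48 ± 0.0859) and *DOF5.8* (0.0313 ± 0.0542). Here *OBP2* and *TMO6*, *PEAR2* and *OBP3*, and *HCA2* and *DOF6* overlapped. *PEAR1* thus went from level with *HCA2* to the lowest gene but *DOF5.8*, and *PEAR2* from rank 7 to rank 3.

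Summed over the 8 genes, the level was 69.0 ± 3.91 RPKM in Mock and 41.9 ± 2.75 RPKM in DEX. Without *TMO6* the sums were 31.6 ± 2.49 and 32.7 ± 2.96 RPKM. The other 7 genes together were thus at nearly the same RPKM in both groups, while the shares among them shifted. RPKM has no TMM scaling, whose factors (1.02 to 1.03 in Mock, 0.958 to 0.997 in DEX) would raise DEX levels relative to Mock. *TMO6* made up 54.3% ± 2.09 of the sum in Mock and 22.02% ± 2.02 in DEX, *PEAR2* 4.08% ± 0.556 and 16.7% ± 1.47, and *OBP2* 10.8% ± 0.754 and 25.2% ± 2.47. These sums and shares are descriptions without a test.

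**Figure D2:**
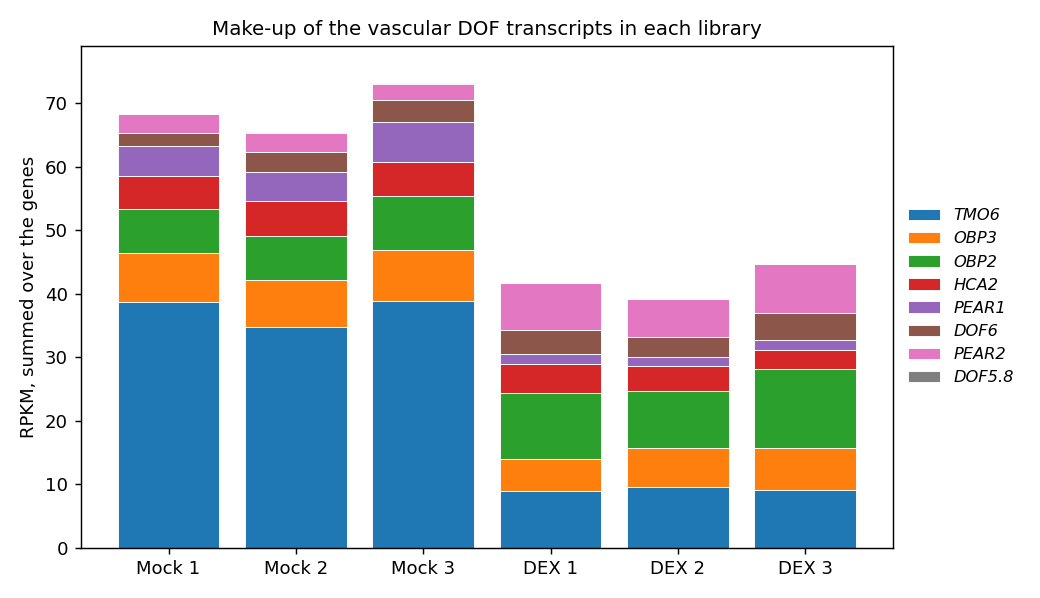
RPKM of the 8 vascular DOF genes (colours), stacked for each of the 6 libraries (x axis; y axis from 0). *TMO6* fills 54.3% of the stack on average in Mock and 22.02% in DEX, while the part above it keeps nearly the same height.

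Among all 36 DOF genes of the family list, *TMO6* ranked 5 or 6 by RPKM in the Mock libraries and between 11 and 14 in the DEX libraries, and *PEAR2* rose from rank 24 or 25 to between 14 and 16. *PEAR1* ranked 21 or 22 in Mock and 26 in every DEX library, the lowest rank among the 7 tested members. The 8 vascular genes together held between 14.2% and 14.6% of the family's summed RPKM in Mock and between 11.3% and 11.8% in DEX.

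Falls among DOF genes were not limited to *TMO6* and *PEAR1*. Of the 36 DOF genes, 27 were tested, and 11 fell and 4 rose, beside 5.5% and 6.38% of all tested genes. Their median log2 fold change was -0.30, beside -0.01 over all tested genes. For 18 of them the groups did not overlap, against 28.3% of all genes. Under upper-quartile scaling or library totals the split was 12 fallen and 2 risen genes. Of the 28 DOF genes outside the vascular set, 20 were tested, of which 9 fell and 2 rose (55% called, beside 11.9% of all genes) and 9 did not pass the test.

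The largest falls outside the set were close in size to those of *TMO6* and *PEAR1*. *DOF2.1*, a vascular gene downstream of TMO5 and LHW in the root, had 55.5, 44.3 and 43.6 CPM in Mock and 13.1, 13.8 and 10.4 CPM in DEX (log2 fold change -1.94 ± 0.15, adjusted p = 0.000255 with edgeR). It was nearly as abundant as *TMO6* in Mock and ended at nearly the same level. *DAG2*, which promotes seed germination, went from 22.5 ± 1.72 to 6.27 ± 0.846 CPM (-1.85 ± 0.13). *DOF1.6* fell by 1.79 ± 0.37 on the log2 scale and *ITD1*, also called DOF4.1, whose protein moves between cells, by 1.64 ± 0.14.

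Smaller falls were found for *DOF3.1* (-0.91 ± 0.15), *COG1* (-0.83 ± 0.16), a gene of light signalling, *OBP1* (-0.77 ± 0.12), a gene linked to the cell cycle, *CDF3* (-0.69 ± 0.11), a flowering-time gene of the cycling DOF group, and *DAG1* (-0.47 ± 0.11), a repressor of seed germination. The 2 genes that rose were *CDF4* (1.26 ± 0.22), of the cycling group, and *OBP4* (0.32 ± 0.08), linked to the cell cycle and cell expansion. *VDOF1* and *VDOF2*, further vascular DOF genes, were not called, with 64.9 ± 8.38 CPM in Mock and 78.4 ± 9.65 CPM in DEX for *VDOF1* (0.27 ± 0.13, adjusted p = 0.261 with edgeR) and 20.1 ± 1.21 and 18.6 ± 3.78 CPM for *VDOF2* (-0.11 ± 0.15, adjusted p = 0.743). The neighbours *DOF4.2* to *DOF4.5* had 1 read in all, from *DOF4.3* in Mock. *DAG2*, *DOF1.6* and *OBP1* were among the genes that had been picked with these libraries, so they are not independent evidence either.

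Some of these calls were lost when a library was left out, with the direction unchanged. *DOF1.6* lost its call without Mock 2 (-1.89, adjusted p = 0.0506 with edgeR), Mock 3 (-1.60, 0.0533) or DEX 2 (-1.66, 0.0774), *COG1* without Mock 1 (-0.78, 0.0573), Mock 2 (-0.87, 0.0570) or DEX 2 (-0.75, 0.0535), and *CDF4* without Mock 2 (1.22, 0.0501). *DAG1* lost it without any one of the 6 libraries, with log2 fold changes from -0.53 to -0.38. *OBP4* lost it likewise, with values from 0.27 to 0.35, and also under upper-quartile scaling and library totals. Without Mock 2 only 9 DOF genes were called, 8 fallen and 1 risen.

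**Figure D3:**
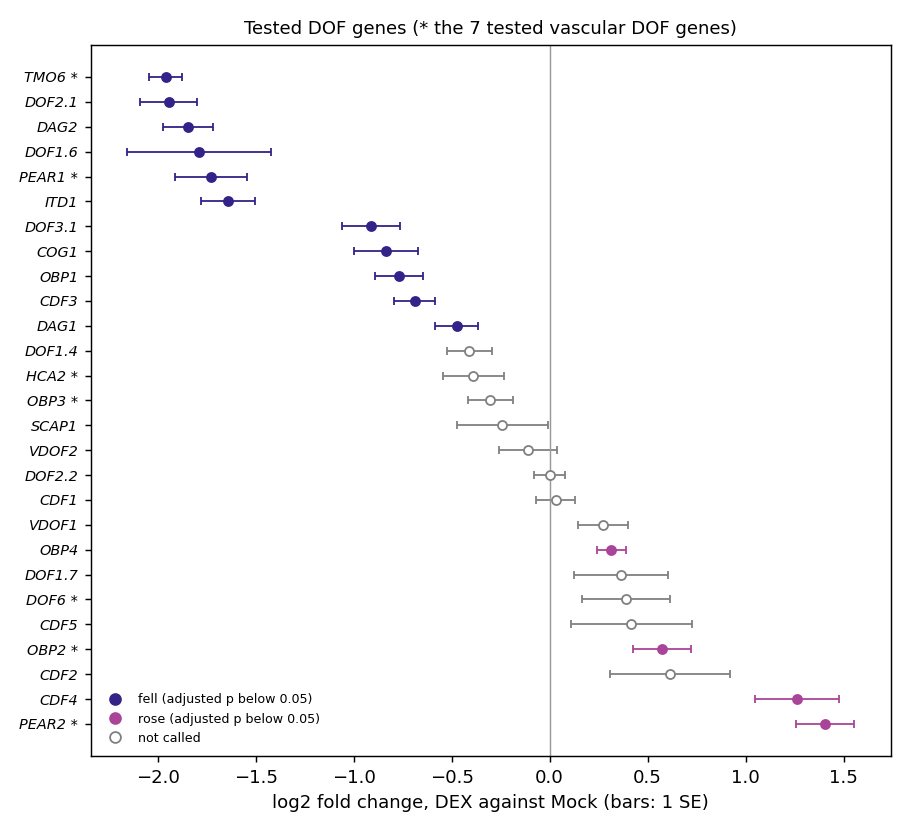
Log2 fold change of DEX against Mock (x axis, bars are 1 SE, n = 3 libraries per group) for the 27 tested DOF genes (y axis), with filled points for genes called at an adjusted p below 0.05 and asterisks at the 7 tested vascular genes. *TMO6* and *PEAR1* stand among 6 genes with values between -1.96 and -1.64, and *PEAR2* at the other end with 1.405.

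Genes whose proteins act on or with the PEAR factors in the root were lower in the same libraries in many cases. Of 25 such genes, 22 were tested, and 12 fell and 2 rose (63.6% called, beside 11.9% of all genes). Their median log2 fold change was -0.82, beside -0.01 over all tested genes, and 15 had no overlap, against 28.3% of all genes. Of the 25, 10 were among the genes that had been picked with these libraries, so this count is not independent evidence.

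Among the inputs, 4 of 11 tested genes fell and 2 rose, beside 5.5% and 6.38% of all genes. *TMO5* had 15.4, 19.0 and 17.8 CPM in Mock and 0.474, 1.18 and 1.01 CPM in DEX, and its relative *T5L1* went from 89.4 ± 5.63 to 30.05 ± 7.80 CPM (log2 fold changes -4.30 ± 0.27 and -1.57 ± 0.19, adjusted p = 0.000128 and 0.00198 with edgeR). The bHLH partner gene *LHW* differed by less than its spread, with 115.9 ± 15.1 CPM in Mock and 118.8 ± 20.8 CPM in DEX (0.04 ± 0.15, adjusted p = 0.928). *LOG4*, a cytokinin-activating enzyme gene, had 1.802, 1.86 and 2.24 CPM in Mock and 0.167, 0.0959 and 0.273 CPM in DEX (-3.41 ± 0.34, adjusted p = 0.000851). The first steps of the route named above were thus lower at *TMO5* and *LOG4* and not detectably different at *LHW*.

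*ARF5*, which encodes MONOPTEROS, fell by 1.06 ± 0.22 on the log2 scale, a call that was lost without Mock 1 (-0.88), Mock 2 (-1.11) or DEX 2 (-1.04). On the side of perception, the cytokinin receptor gene *AHK4* rose from 53.6 ± 4.45 to 104.3 ± 18.6 CPM (0.96 ± 0.14, adjusted p = 0.00432 with edgeR), and the response regulator gene *ARR10* rose by a small amount (0.39 ± 0.09, adjusted p = 0.0305), a call lost in 7 of 16 alternatives (adjusted p from 0.00928 to 0.135), namely without any single library but DEX 1 (0.35 to 0.42) and under upper-quartile scaling and library totals. *AHK2*, *AHK3*, *ARR1* and *ARR12* were not called, with log2 fold changes between 0.10 and 0.12. *AHP6*, an inhibitor of cytokinin signalling, had 0 reads in all 6 libraries, which allows up to 0.0980 CPM in the shallowest, and *LOG3* had 11 reads over the Mock and 10 over the DEX libraries.

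Of the antagonists, 5 of 8 tested genes fell, beside 5.5% of all genes, and the other 3 did not pass the test. The HD-ZIP III genes *ATHB8*, *REV* and *PHB* fell by 2.28 ± 0.10, 1.32 ± 0.15 and 0.88 ± 0.09 on the log2 scale, whereas *PHV* (0.00 ± 0.07) and *ATHB15* (-0.08 ± 0.11) were not called. The phloem peptide gene *CLE25* fell from 8.40, 8.36 and 8.04 CPM to 0.307, 0.320 and 0.354 CPM (-4.64 ± 0.16, adjusted p = 1.55e-05 with edgeR), and the receptor kinase gene *BAM3* of early sieve elements from 50.5 ± 3.12 to 7.51 ± 0.986 CPM (-2.75 ± 0.12). *CLE26* was not called (0.29 ± 0.19), and *CLE45* had 7 reads in Mock and 1 in DEX. The *SMXL3*, *SMXL4* and *SMXL5* genes, which are needed for phloem formation, all fell (-0.98 ± 0.16, -0.77 ± 0.16 and -2.30 ± 0.18), *SMXL4* losing its call without Mock 1 (-0.70), Mock 2 (-0.74) or DEX 1 (-0.75).

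**Figure D4:**
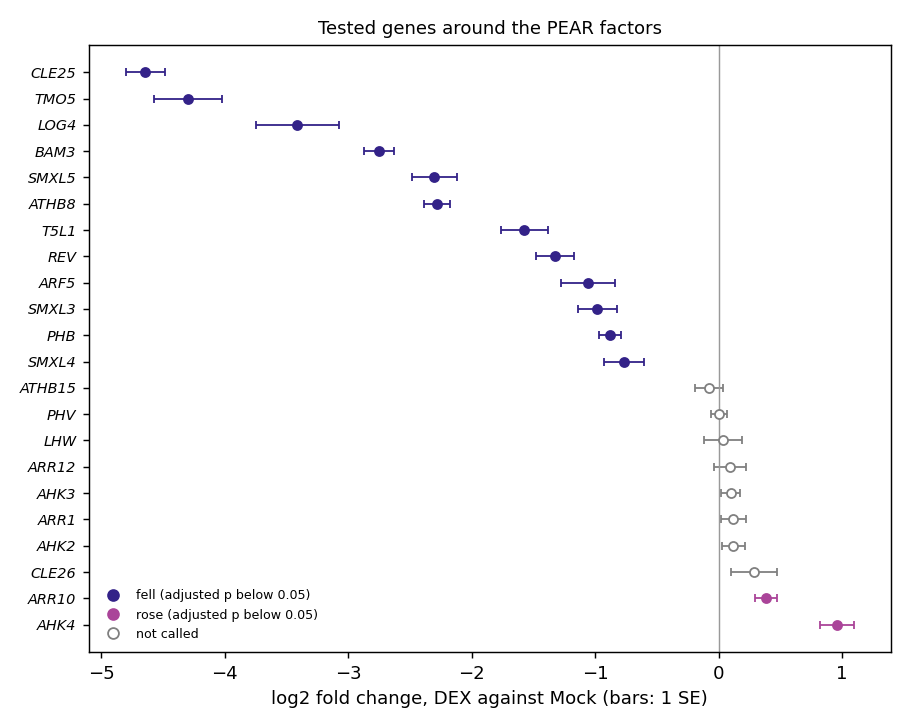
Log2 fold change of DEX against Mock (x axis, bars are 1 SE, n = 3 libraries per group) for the 22 tested genes that act on or with the PEAR factors (y axis), filled where called at an adjusted p below 0.05. *CLE25*, *TMO5* and *LOG4* stand lowest, between -4.64 and -3.41, and *AHK4* highest at 0.96.

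Cell type markers were read beside these changes. The cambium markers *WOX4* and *ANT* fell (-1.89 ± 0.17 and -2.22 ± 0.19), 2 of 3, beside 5.5% of all tested genes. *WOX4* was also among the genes that had been picked with these libraries, so its fall is not independent evidence. The other markers were not checked for this. *PXY* was lower in all DEX libraries but not called (-0.52 ± 0.21, adjusted p = 0.189 with edgeR). The summed level of the 3 was 188 to 240 CPM in Mock and 90.05 to 156 CPM in DEX. Of the 6 phloem markers, 1 rose (*CALS7*, 0.38 ± 0.09), beside 6.38% of all tested genes, and the other 5 did not pass the test. For each of the 6 the groups did not overlap, against 28.3% of all genes. *APL* (0.44) and *NAC45* (0.49) were higher in DEX, and *NAC86* (-0.97), *SUC2* and *SEOR1* (-0.14) were lower. The sum of the 6 was 356 to 417 CPM in Mock and 298 to 352 CPM in DEX, the abundant *SUC2* not being called (-0.50 ± 0.16, adjusted p = 0.0873 with edgeR). Of 4 xylem markers, 1 fell (*XCP2*), beside 5.5% of all tested genes. The sums of the 4 were 2415 to 2599 CPM in Mock and 2131 to 2620 CPM in DEX. The phloem, cambium and xylem markers were thus all read in both groups, and the 5 flower and root markers together stayed at or under 0.223 CPM, with *COBL9* at 0 reads. The part of the cambium or phloem markers in the changes of the DOF genes was not tested.

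Over the 6 libraries, 579 of 18009 genes averaging 1 CPM or more had a Pearson correlation above 0.95 with *TMO6*, 459 with *PEAR1* and 416 with *PEAR2*, which for genes that differ between 2 groups mostly restates the group difference. The genes most like *TMO6* were AT5G23100 (r = 0.9996), the transporter gene *UMAMIT12* (r = 0.9995) and AT3G19300 (r = 0.998). For *PEAR1* the first was another DOF gene, *ITD1* (r = 0.998), followed by *AK-HSDH II* (r = 0.997) and AT4G16790 (r = 0.997). *ITD1* had 13.8, 12.8 and 16.6 CPM in Mock and 5.05, 4.57 and 4.25 CPM in DEX, with Mock 3 the highest library as for *PEAR1*. For *PEAR2* they were AT3G09970 (r = 0.999), AT1G74440 (r = 0.998) and *TRX5* (r = 0.997), of which AT3G09970 itself was not called (0.23 ± 0.07, adjusted p = 0.0973 with edgeR). The 6 libraries share their treatment and line, and these correlations are descriptions.

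AUXIN RESPONSE FACTORs bind short motifs of which TGTCTC and TGTCGG are the best known, and both were searched on both strands in the 1000 bases before each annotated gene start in TAIR10.1. TGTCTC was found for 5 of the 8 genes (*PEAR1*, *PEAR2*, *TMO6*, *DOF6* and *HCA2*) and in 39.6% of 27443 protein-coding genes, and TGTCGG for *DOF6* alone and in 14.6% of all. The motifs do not overlap each other in these windows. Within 250 bases of the start, *DOF6* alone had a match, against 14.7% of all genes for either motif. The matches of the genes that changed are shown with 10 bases on each side, the motif in capitals, read on the strand of the gene, where GAGACA is TGTCTC on the other strand.
TMO6: acggaccattGAGACAgcaacacaga
PEAR1: caaaaaagcaGAGACAgagagaggga
PEAR1: ataacaccttTGTCTCctaaattcac
PEAR2: aggaaaaaaaGAGACAtcgcggcggt
They lie 675 bases before the start of *TMO6* (chr5:24240125-24240150, plus strand), 824 and 619 bases before that of *PEAR1* (chr2:15768252-15768277 and chr2:15768457-15768482, plus strand) and 846 bases before that of *PEAR2* (chr5:542147-542172, minus strand). Genes that fell, genes that rose and genes that were not called thus all include holders of the motif, and a match is a description of the letters only.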

How the data were processed

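The authors aligned single-end reads of 50 bases to TAIR10 with CLC Genomics Workbench. The deposited tables give counts per gene (total, unique, exon, junction and intron reads) and RPKM, computed by the authors from exon reads, exon length and total gene reads, a formula that rebuilt the values. Library preparation marked the strand; its use in counting is not stated in the sources read. The genotype was taken from titles and source names, although the labels' growth text names wild type. RNA is labelled as pooled from 3 samples, and the methods describe several plants per replicate; p-values measure the spread between these libraries.

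Entries without a gene name (5, at most 0.135% of reads) were left out, and 2 identifiers on 2 entries each were summed. Total gene reads per library were 30601253 to 37812400. They were tested with edgeR 4.0.16 (R 4.3.3; TMM, filterByExpr, quasi-likelihood F test, two-sided, Benjamini-Hochberg over 19598 genes, called below 0.05), checked on simulated data; the SE is the log2 fold change divided by the square root of F, and adjusted p-values in the text are from this fit unless another is named. The limit of 3 reads covers counting error only. The alternatives were unique or exon reads, RLE, upper-quartile and total scaling, 2 filters, DESeq2 1.42.0, limma-voom 3.58.1, a replicate block and leaving out each library. Members and gene lists were chosen with earlier results of these data known. Named were all 8 members, every called DOF and pathway gene, and the 3 genes most correlated with *TMO6*, *PEAR1* and *PEAR2*; the uncalled genes named beside them were chosen after their values were seen. A second line of the study was not analysed here.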

Additional observations from a re-analysis of the deposited data

How the results depend on the processing

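All 7 tested vascular DOF genes kept their direction in all 16 alternatives, with log2 fold changes of -2.03 to -1.92 for *TMO6*, -1.82 to -1.56 for *PEAR1* and 1.33 to 1.52 for *PEAR2*, each called throughout. Of 512 values for 32 genes (the 7 tested vascular genes, called or not, and every other called gene of the lists), 470 kept their direction and their side of the threshold, 42 kept direction but lost the call and 0 reversed. Among the other 17 tested genes of the lists, which were not called, 24 of 272 values changed sign and 7 passed the threshold. With upper-quartile scaling or library totals, 1 vascular gene, 2 DOF genes and 1 pathway gene rose, and limma-voom called 1 vascular gene as risen. Leaving out 1 library gave 1305 to 2198 called genes in all, 690 to 1000 fallen and 615 to 1198 risen, the lowest without Mock 2; 3 to 4 vascular genes, of which 1 to 2 rose; 9 to 13 DOF genes, of which 8 to 11 fell and 1 to 3 rose; and 11 to 13 pathway genes, of which 10 to 12 fell and 1 to 2 rose. Same-numbered Mock and DEX libraries correlated at 0.52, 0.02 and 0.51 in their deviations from the group means. Mock 2 and DEX 2 did not correlate best with each other. Deviations from the mean of 3 libraries depend on each other, so these values cannot decide whether the numbers mark pairs. The main fit did not treat the libraries as pairs. With the replicate block 3980 genes were called, 1722 fallen and 2258 risen, with 4 vascular genes, 18 DOF genes and 14 pathway genes. There *DOF1.4* (-0.41, adjusted p = 0.00802 with edgeR), *CDF5* (0.43, 0.0352) and *CDF2* (0.62, 0.00305) passed the threshold, unlike in the main fit. Why these counts move was not tested. At this depth the levels of *DOF5.8* cannot be compared.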
